A study of Mus musculus with 2 samples.

Results

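Malat1, Neat1, Kcnq1ot1 and Dleu2 are long noncoding RNAs that are retained in the nucleus or processed there. They were taken by gene name, and each had 1 line in the deposited tables, so the account covers 4 of 23288 transcripts. RNA was measured in 1 library of Nedd4-/- and 1 library of Nedd4+/+ splenic B cells. The donors were fetal liver chimeras, that is, mice given fetal liver cells from which their blood cells arise. Both genotypes were on the background labelled B6:129-backcrossed to B6, and both were cultured for 72 hours with LPS, a bacterial activator of B cells, and the cytokine IL4, for class switching to IgG1. RNA was depleted of ribosomal RNA, and neither the number of animals behind each library nor the share of remaining host cells is given in the sources used here. Levels are RPKM, reads scaled to transcript length and to the mapped reads of the library. Each gene also has a level for the kb upstream of it, which came in steps of read bases and not of whole reads.

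Malat1 is an abundant unspliced RNA of nuclear speckles, bodies rich in splicing factors. Neat1, its neighbour in the genome, is the scaffold of paraspeckles, bodies built around it by RNA-binding proteins. Kcnq1ot1 is transcribed from the paternal allele against the direction of Kcnq1 and silences imprinted genes around it, while Dleu2 is the host transcript of miR-15a and miR-16-1, microRNAs that restrain B cell proliferation.

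The libraries corresponded to 61040000 reads for Nedd4-/- and 83150000 reads for Nedd4+/+ cells. Genotypes were described, not tested, since there is 1 library for each and differences lack a replicate check. Intervals are exact Clopper-Pearson 95% intervals of read pairs and cover counting error only. Nedd4, a ubiquitin ligase gene, stood at 1.95 RPKM in Nedd4-/- cells and 7.59 RPKM in Nedd4+/+ cells. Whether the reads counted for it lie in the deleted part is not given in the sources used here. All 7 B cell markers considered, among them Cd79b, Pax5 and Ms4a1, reached a mean of 1 RPKM, with summed levels of 360.1 RPKM in Nedd4-/- and 469 RPKM in Nedd4+/+ cells. Of 8 T cell markers 2 did, Thy1 and Lck, with a sum over the list of 11.8 RPKM in Nedd4-/- and 13.9 RPKM in Nedd4+/+ cells. Of 8 erythroid markers 2 did, the near-identical globin genes Hba-a1 and Hba-a2, with a list sum of 4.64 RPKM in Nedd4-/- and 6.20 RPKM in Nedd4+/+ cells. None of 8 myeloid markers did, the highest being at 0.772 RPKM, and no marker of these lists was at 0 in both libraries. Xist stood at 0.0958 RPKM in Nedd4-/- and 23.7 RPKM in Nedd4+/+ cells, and the Y-linked genes Ddx3y and Eif2s3y were higher in Nedd4-/- cells, so the libraries also differed in sex-linked RNA, which cannot be told apart from genotype.

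All 4 RNAs had lower deposited levels in the Nedd4-/- library, by less than 2-fold in each case. In bulk RNA, fewer cells that express a transcript and less of it per cell cannot be told apart. Malat1 stood at 119.6 RPKM in Nedd4-/- cells and 187 RPKM in Nedd4+/+ cells. It was far above the others in both libraries. Neat1 stood at 4.14 RPKM in Nedd4-/- cells and 5.69 RPKM in Nedd4+/+ cells. Kcnq1ot1 stood at 2.54 RPKM in Nedd4-/- cells and 3.61 RPKM in Nedd4+/+ cells. Dleu2 stood at 1.53 RPKM in Nedd4-/- cells and 1.89 RPKM in Nedd4+/+ cells. The order of levels per length was thus the same in both genotypes. Malat1 exceeded Neat1 28.9-fold in Nedd4-/- and 32.8-fold in Nedd4+/+ cells, Neat1 exceeded Kcnq1ot1 1.63-fold in Nedd4-/- and 1.58-fold in Nedd4+/+ cells, and Kcnq1ot1 exceeded Dleu2 1.65-fold in Nedd4-/- and 1.91-fold in Nedd4+/+ cells. With no replicates the spread behind these steps is unknown.

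**Figure D1:**
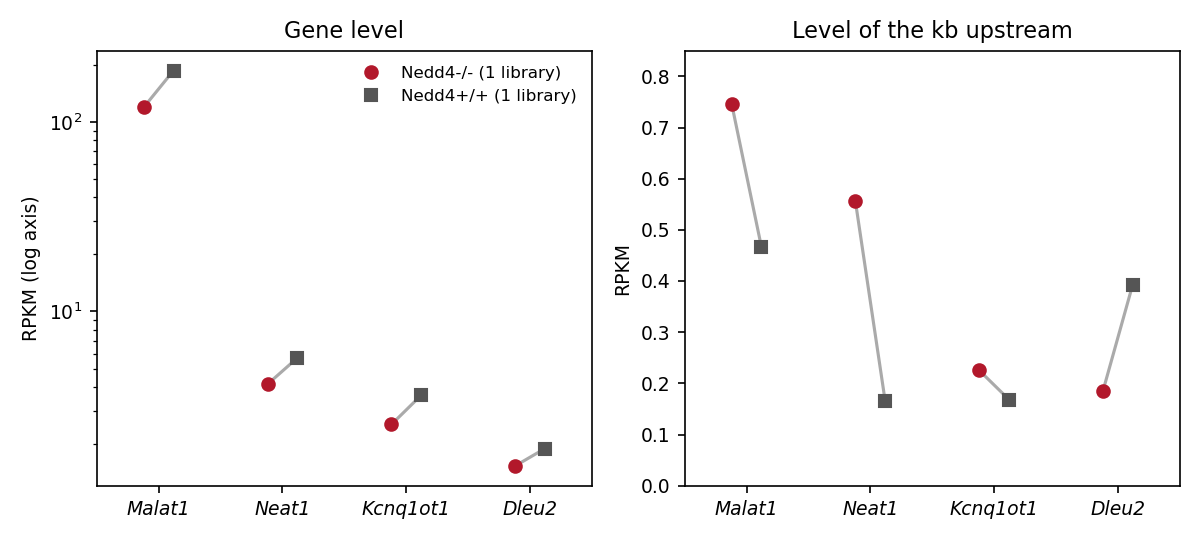
Level of each RNA (left, RPKM on a log axis) and of the kb upstream of it (right, RPKM on a linear axis) in the Nedd4-/- library (circles) and the Nedd4+/+ library (squares), with 1 library each. Before rescaling to the median, gene levels are lower in Nedd4-/- for all 4 RNAs, whereas upstream levels are higher in Nedd4-/- except at Dleu2; relative to the medians of all genes and windows, the gene level of Dleu2 turns to 0.12 and the window of Kcnq1ot1 to -0.14 on the log2 scale.

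Malat1 was among the most abundant RNAs of these cells. Of 23288 transcripts it ranked 109th in the Nedd4-/- library, at a mean depth of 738 reads per base, and 107th in the Nedd4+/+ library, at 1569 reads per base. Among 2121 lines with a noncoding accession, small RNAs left out, it came 3rd in Nedd4-/- and 2nd in Nedd4+/+ cells. The pseudogene Rplp2-ps1 stood above it, and Gm15772 passed it in Nedd4-/- cells by 120.2 against 119.6 RPKM. Neat1 came 91st of these lines in both libraries, Kcnq1ot1 140th in Nedd4-/- and 131st in Nedd4+/+ cells, and Dleu2 217th in Nedd4-/- and 219th in Nedd4+/+ cells.

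The transcripts behind these values differ widely in length. Malat1 spans 6983 nt and Kcnq1ot1 83437 nt without splicing, by RefSeq. The Neat1 line is the short isoform, matched to a GENCODE transcript of 3004 nt at the start of a gene spanning 20773 nt. The long isoform, which carries the paraspeckle scaffold, has no line of its own here, and reads of both isoforms at the shared start cannot be told apart. Dleu2 was matched to a spliced transcript of 1437 nt in 7 exons over a gene of 79538 nt. These lengths put about 25498 read pairs in Nedd4-/- and 54229 in Nedd4+/+ cells on Malat1. Kcnq1ot1 had about 6456 in Nedd4-/- and 12538 in Nedd4+/+ cells, and Neat1 379 in Nedd4-/- and 711 in Nedd4+/+ cells. Dleu2 had 67.2 in Nedd4-/- and 113 in Nedd4+/+ cells. Dleu2 thus rests on far fewer reads than the others. GC content was 42.5% in Malat1, 51.1% in Neat1, 40.3% in Kcnq1ot1 and 45.2% in Dleu2.

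As log2((Nedd4-/- + 1)/(Nedd4+/+ + 1)) of RPKM, a scale that understates differences of low genes, Malat1 was at -0.64. Its counting interval without the added 1 ran from -0.66 to -0.62. Kcnq1ot1 was at -0.38 (interval -0.56 to -0.47 without the added 1) and Neat1 also at -0.38 (-0.65 to -0.28). Dleu2 was at -0.19, with an interval of -0.77 to 0.14 that includes no difference. The interval of Malat1 lay below that of Kcnq1ot1 and overlapped those of Neat1 and Dleu2. None of the 4 RNAs passed the 2-fold rule. Of 9405 genes tested, those averaging at least 1 RPKM, 1.29% passed it in either direction.

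These ratios have to be read against a shift of the whole table. The median log2 ratio of the 9405 genes was -0.31, and 7.32% of them were above 0. The median of the 4 RNAs was -0.38. Relative to the median of all genes Malat1 was at -0.33, Kcnq1ot1 and Neat1 at -0.07 each, and Dleu2 at 0.12, where its direction turns. On that scale 0 of the 4 passed 2-fold, as did 0.5% of all genes. A lower log2 ratio than that of Malat1 was seen in 8.22% of all genes tested. Genes as abundant as Malat1 were lower as a class: the median ratio of 108 genes with a mean of 100 to 300 RPKM was -0.42, and 36.1% of them had a lower ratio than Malat1. Among 3435 genes of 3 to 8 RPKM, with a median of -0.33, the share below Neat1 was 38.4% and that below Kcnq1ot1 38.0%. Among 2929 genes of 1 to 3 RPKM, with a median of -0.21, the share below Dleu2 was 54.0%. All 4 RNAs lay within the bulk of genes of like level.

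**Figure D2:**
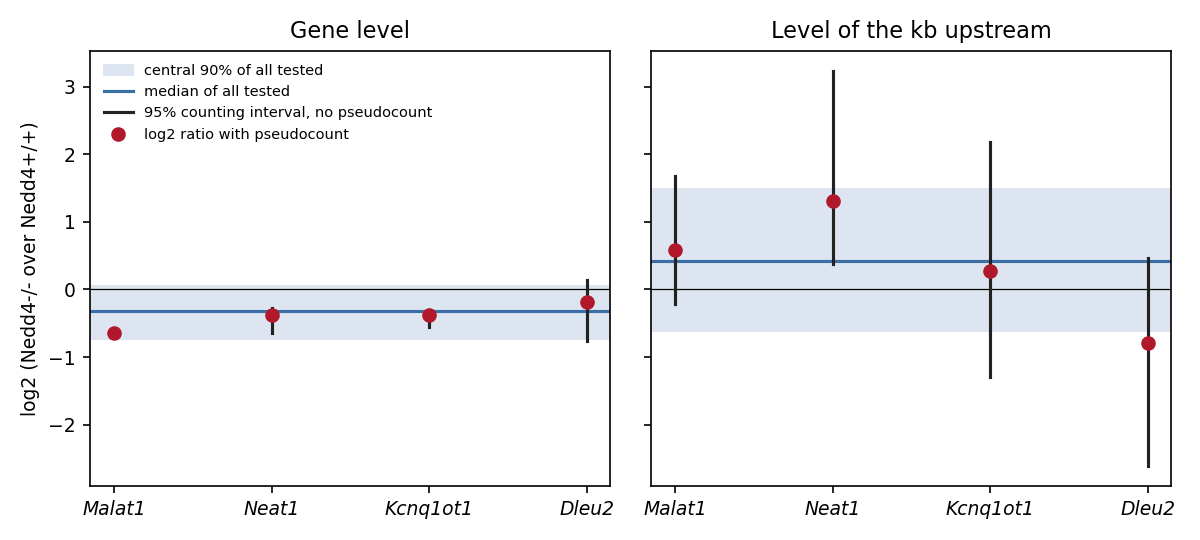
Log2 ratio of Nedd4-/- over Nedd4+/+ for the gene level (left, 1 RPKM added) and the level of the kb upstream (right, 0.1 RPKM added). Points are the ratios, black lines the 95% counting intervals without an added value, the blue line the median and the band the central 90% of all genes or windows tested; Dleu2 alone lies below the band, in its upstream window.

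The kb upstream of each gene was described next, since transcription that starts at or runs through a promoter is read there. Promoters of 3 of the RNAs were at hand from RefSeq (build GRCm38.p6), and each covers 250 bases before the start and 50 bases from the start onward, so that most of it lies in the stretch the upstream level reads. Capitals mark matches, on either strand, to the motifs TATAAA (the core promoter box bound by TBP), CCAAT (the box bound by NF-Y), GGGCGG (the GC box bound by Sp1) and TGACG (the half-site of CREB and ATF factors). The Malat1 promoter is at chr19:5802623-5802922, that of Kcnq1ot1 at chr7:143296498-143296797 and that of Dleu2 at chr14:61682324-61682623, all on the minus strand.
Malat1: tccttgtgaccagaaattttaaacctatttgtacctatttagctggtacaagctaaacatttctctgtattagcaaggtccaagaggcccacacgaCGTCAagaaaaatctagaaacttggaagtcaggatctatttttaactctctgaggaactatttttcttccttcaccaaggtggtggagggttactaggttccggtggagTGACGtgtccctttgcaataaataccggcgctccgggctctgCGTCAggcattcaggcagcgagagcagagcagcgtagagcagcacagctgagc
Kcnq1ot1: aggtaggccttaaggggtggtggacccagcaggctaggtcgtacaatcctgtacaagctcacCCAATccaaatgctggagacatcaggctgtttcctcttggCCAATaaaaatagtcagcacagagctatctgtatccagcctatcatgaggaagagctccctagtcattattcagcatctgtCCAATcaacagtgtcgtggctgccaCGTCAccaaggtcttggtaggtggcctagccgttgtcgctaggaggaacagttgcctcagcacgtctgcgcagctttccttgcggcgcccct
Dleu2: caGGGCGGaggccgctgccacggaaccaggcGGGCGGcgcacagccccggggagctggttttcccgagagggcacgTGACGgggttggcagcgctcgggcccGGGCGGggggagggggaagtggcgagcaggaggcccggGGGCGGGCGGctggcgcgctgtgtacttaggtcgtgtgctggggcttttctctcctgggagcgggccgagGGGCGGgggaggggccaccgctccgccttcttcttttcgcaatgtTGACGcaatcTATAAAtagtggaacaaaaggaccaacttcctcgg
The promoters differ in make-up. Dleu2 has 29 CpG dinucleotides and a GC content of 69.0%, where the median of 32851 promoters is 7 and 52.7%, and it holds 6 GC boxes, of which a pair overlaps. Kcnq1ot1 has 9 CpG and 3 CCAAT boxes, at 188, 148 and 67 bases before the start, all on the strand of the RNA. Malat1 has 10 CpG and 3 TGACG half-sites. Kcnq1ot1 holds 1 TGACG and Dleu2 2, and Dleu2 also holds a TATAAA 15 bases after the start. Over all promoters the share with a match is 13.6% for the TBP box, 37.4% for the NF-Y box, 35.7% for the GC box and 20.8% for the CREB half-site.

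Before rescaling to the median, upstream levels differed in the other direction from gene levels at 3 of the 4 RNAs. The window of Neat1 stood at 0.555 RPKM in Nedd4-/- and 0.166 RPKM in Nedd4+/+ cells, which is 16.95 read pairs in Nedd4-/- and 6.89 in Nedd4+/+ cells. Its log2 ratio, with 0.1 RPKM added, was 1.30 (interval 0.38 to 3.24 without it). It was the only one of the 4 windows past the 2-fold rule on this scale, a rule that 19.8% of the 11837 windows averaging at least 0.2 RPKM passed as higher and 0.794% as lower. It no longer passed relative to the median of all windows (0.89), where 6.5% of windows did, or with 0.5 RPKM added (0.66).

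The window of Malat1 stood at 0.746 RPKM in Nedd4-/- and 0.467 RPKM in Nedd4+/+ cells, or 22.8 read pairs in Nedd4-/- and 19.4 in Nedd4+/+ cells. Its log2 ratio was 0.58 (interval -0.22 to 1.68). The window of Kcnq1ot1 stood at 0.225 RPKM in Nedd4-/- and 0.168 RPKM in Nedd4+/+ cells, a log2 ratio of 0.28 (interval -1.29 to 2.19). Its mean of 0.197 RPKM left it just under the level tested, and relative to the median of all windows its direction turned, to -0.14. Neither difference was detectable at this depth.

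The window of Dleu2 was the exception. It stood at 0.185 RPKM in Nedd4-/- and 0.393 RPKM in Nedd4+/+ cells, or 5.66 read pairs in Nedd4-/- and 16.3 in Nedd4+/+ cells. The log2 ratio was -0.79, with an interval of -2.61 to 0.46 that includes no difference. Only 2.42% of windows tested had a lower ratio, and relative to the median of all windows it was at -1.20, past 2-fold, as were 5.68% of windows in that direction.

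The windows of the whole table were higher in the Nedd4-/- library, with a median log2 ratio of 0.41. The median window stood at 0.267 RPKM in Nedd4-/- and 0.134 RPKM in Nedd4+/+ cells. Low genes shared this: 9625 genes with a mean of 0.1 to 0.5 RPKM had a median gene level of 0.287 RPKM in Nedd4-/- and 0.147 RPKM in Nedd4+/+ cells. Windows of genes as abundant as Malat1 were mixed. Upstream of genes of 100 to 300 RPKM the median window stood at 0.786 RPKM in Nedd4-/- and 0.707 RPKM in Nedd4+/+ cells. Of the 96 tested there, 7.29% were past 2-fold as higher and 0% as lower. Over all 108 windows of such genes, though, the median difference of Nedd4-/- minus Nedd4+/+ was -0.0696 RPKM. At Malat1 the difference was 0.279 RPKM, larger than at 84.3% of these windows. Upstream of genes of 3 to 8 RPKM the median difference of Nedd4-/- minus Nedd4+/+ was 0.0938 RPKM, against 0.390 RPKM at Neat1, a difference larger than at 93.8% of these windows. At Kcnq1ot1 it was 0.0569 RPKM. At Dleu2 it was -0.208 RPKM, where upstream of genes of 1 to 3 RPKM the median was 0.0906 RPKM and 12.4% of windows had a lower one. The part of this shift in the upstream ratios was not tested.

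As a share of the gene level, the kb upstream of Malat1 held 0.624% in Nedd4-/- and 0.250% in Nedd4+/+ cells, the smallest share among the 4 RNAs in both libraries. That of Neat1 held 13.4% in Nedd4-/- and 2.91% in Nedd4+/+ cells. For Kcnq1ot1 the share was 8.89% in Nedd4-/- and 4.66% in Nedd4+/+ cells, and for Dleu2 it was 12.1% in Nedd4-/- and 20.8% in Nedd4+/+ cells. Dleu2 had the largest share in Nedd4+/+ cells and Neat1 in Nedd4-/- cells.

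Dleu2 carries 2 microRNA hairpins, and their mature sequences are shown because the windows before them lie inside the Dleu2 gene and mostly outside the spliced transcript counted for it. Both are from RefSeq (GRCm38.p6, minus strand), miR-15a-5p at chr14:61632075-61632096 and miR-16-5p at chr14:61631936-61631957. Capitals mark the seed, bases 2 to 8, which is the same in both, and 16 of 22 positions are identical when aligned from the first base.
miR-15a-5p: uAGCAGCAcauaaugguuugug
miR-16-5p: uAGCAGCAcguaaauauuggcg
The kb before the Mir15a hairpin stood at 7.42 RPKM in Nedd4-/- and 9.22 RPKM in Nedd4+/+ cells. The kb before Mir16-1 stood at 6.72 RPKM in Nedd4-/- and 8.24 RPKM in Nedd4+/+ cells. The windows share 862 bases in the GENCODE annotation (GRCm38) and are not independent of each other. Both stood above the Dleu2 transcript itself, the first 4.84-fold in Nedd4-/- and 4.87-fold in Nedd4+/+ cells, the second 4.39-fold in Nedd4-/- and 4.36-fold in Nedd4+/+ cells.

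The log2 ratio was -0.31 for the first window (interval -0.56 to -0.07) and -0.29 for the second (-0.55 to -0.04). Both lay below 0, as the Dleu2 gene level did. Relative to the median of all windows they were at -0.72 and -0.70. The Dleu2 gene level was at 0.12 relative to the median of all genes. These references are not of like level, since the median window stood at only 0.267 RPKM in Nedd4-/- and 0.134 RPKM in Nedd4+/+ cells. Among windows averaging at least 1 RPKM, 10 were past 2-fold as higher and 38 as lower. How many windows reach that level was not computed, so these counts do not show how common such ratios are. In the same annotation 47 bases of the first window are exon of the Dleu2 transcript counted here. In 2 of 15 Dleu2 transcripts a longer exon covers most of it, and 812 bases of it are exon of at least 1. The windows therefore read sequence that the spliced line leaves out, and unspliced Dleu2 and its other spliced forms cannot be told apart there. The hairpin genes themselves, shorter than a read, stood at 3.82 RPKM in Nedd4-/- and 3.47 RPKM in Nedd4+/+ cells for Mir15a, and at 0.352 RPKM in Nedd4-/- and 0.490 RPKM in Nedd4+/+ cells for Mir16-1. These values do not measure the mature microRNAs.

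**Figure D3:**
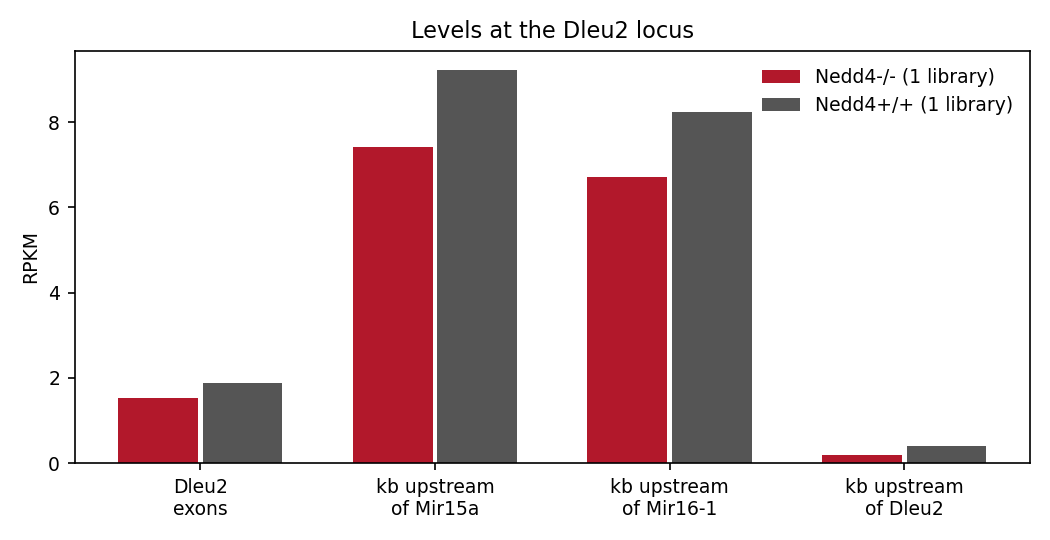
RPKM of the spliced Dleu2 transcript, of the kb before each of its microRNA hairpins and of the kb before Dleu2 itself in the Nedd4-/- and Nedd4+/+ libraries (1 each). The windows before the hairpins stand between 6.72 and 9.22 RPKM, above the Dleu2 exons at 1.53 RPKM in Nedd4-/- and 1.89 RPKM in Nedd4+/+.

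Targets of the miR-15/16 seed family lay on both sides of other genes. Of 10 genes 9 were tested and none passed 2-fold, with 4 lower and 5 higher than the overall median and a median log2 ratio of -0.29. Ccnd2, a D-type cyclin gene, was at 22.8 RPKM in Nedd4-/- and 31.2 RPKM in Nedd4+/+ cells (-0.43), and Ccne1, a cyclin of S phase entry, at 8.68 RPKM in Nedd4-/- and 11.97 RPKM in Nedd4+/+ cells (-0.42). Cdc25a, a phosphatase that activates cyclin-dependent kinases, had a log2 ratio of -0.45 and Chek1, a checkpoint kinase gene, -0.28. Genes of microRNA processing had a median of -0.30 over 13 genes, none past 2-fold. The helicase genes Ddx17 and Ddx5 were at -0.40 and -0.09, Xpo5, the exporter of hairpins, at -0.39, and Dgcr8, a partner of Drosha, at -0.23.

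Genes next to the 4 RNAs were taken as the 5 nearest on each side in the RefSeq order. Of 30 such genes 20 had a line and 10 were tested, none past 2-fold. Their log2 ratios had a median of -0.28. Around Malat1 and Neat1, the log2 ratio was -0.24 for Frmd8, -0.32 for Dpf2, a chromatin reader gene, and -0.35 for Sssca1. It was -0.16 for Slc25a45, a mitochondrial carrier gene, and -0.04 for Fam89b. Malat1 had a lower ratio than each of these 5 neighbours. The window of Frmd8, at 0.555 RPKM in Nedd4-/- and 0.178 RPKM in Nedd4+/+ cells, had levels like that of Neat1.

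Kcnq1ot1 stood among genes of its imprinted domain that were near silence. Kcnq1, the potassium channel gene it runs against, was at 0.394 RPKM in Nedd4-/- and 0.320 RPKM in Nedd4+/+ cells. Cdkn1c, an inhibitor of cyclin-dependent kinases, was at 0.391 RPKM in Nedd4-/- and 0.165 RPKM in Nedd4+/+ cells, and Slc22a18, a transporter gene, at 0.487 RPKM in Nedd4-/- and 0.213 RPKM in Nedd4+/+ cells. All were under 1 RPKM in both libraries, with Kcnq1ot1 above them. Higher values in Nedd4-/- cells were common at this level. The 9625 genes with a mean of 0.1 to 0.5 RPKM had a median of 0.287 RPKM in Nedd4-/- and 0.147 RPKM in Nedd4+/+ cells. Tssc4 and Cd81, on the other side, were expressed. Cd81, a tetraspanin of the B cell surface, was at 25.9 RPKM in Nedd4-/- and 46.4 RPKM in Nedd4+/+ cells (-0.82). Tssc4 had a log2 ratio of -0.43 and R74862 of -0.22. The strand setting of the counting is not given in the sources used here, so reads of Kcnq1ot1 and of unspliced Kcnq1 cannot be told apart. Around Dleu2 the overlapping genes Trim13 and Kcnrg were under 1 RPKM in both libraries, and Mir15a, given above, was the one tested gene, with a log2 ratio of 0.11.

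Of the 51 imprinted genes listed, 16 were tested at a median log2 ratio of -0.45, and 1 was past 2-fold, where 1.15% of all genes were past it as lower. With no minimum level the median turned to 0.11. The gene past 2-fold was H13, a signal peptide peptidase gene, at 12.2 RPKM in Nedd4-/- and 28.1 RPKM in Nedd4+/+ cells (-1.14). Against the overall median it was at -0.82, no longer past 2-fold. Gnas, a G protein subunit gene, was at -0.51 and Nap1l4, a histone chaperone gene, at -0.43. Chromatin factors linked to Kcnq1ot1 had a median of -0.34 over 13 genes, none past 2-fold. Ezh2, the methyltransferase of Polycomb complex PRC2, was at 27.4 RPKM in Nedd4-/- and 26.7 RPKM in Nedd4+/+ cells (0.03). Dnmt1, the maintenance DNA methyltransferase, was at -0.57, its recruiter Uhrf1 at -0.63, and Hnrnpu, a nuclear scaffold protein gene, at -0.42.

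Genes for proteins of the bodies that Neat1 and Malat1 occupy had medians near that of all genes. Of 29 tested paraspeckle protein genes 19 were lower than the overall median and 10 higher, none past 2-fold, with a median log2 ratio of -0.39 like that of Neat1. Hnrnpf, an RNA-binding protein gene, was at 67.3 RPKM in Nedd4-/- and 88.7 RPKM in Nedd4+/+ cells (-0.39). Hnrnpk was at -0.42, Rbm3, a cold-inducible RNA-binding protein gene, at -0.19, and Hnrnpul1 at 29.5 RPKM in Nedd4-/- and 51.7 RPKM in Nedd4+/+ cells (-0.79). Of 25 genes of nuclear speckles 14 lay below and 11 above, none past 2-fold, with a median of -0.33. The splicing factor genes Srsf2 and Srsf1 were at -0.32 and -0.36, Ddx39b, an mRNA export helicase gene, at -0.48, and Sf3b1, of the U2 complex, at -0.58. Genes of RNase P and RNase Z, which cut the end of Malat1, and of RNA methylation had a median of -0.23 over 15 genes, none past 2-fold. They included Pop4 (-0.32), Pop5 (-0.12) and Rpp30 (-0.07), subunits of RNase P, and Wtap (-0.39), a subunit of the methyltransferase complex.

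Among 19 other tested noncoding RNA genes 12 were higher than the overall median and 7 lower. Most of the 12 were hosts of small nucleolar RNAs. The list's median log2 ratio was -0.14, which turned to 0.03 with no minimum level. All 4 RNAs lay below -0.14, and Malat1, Neat1 and Kcnq1ot1 also below the overall median. Such ratios were not particular to them: 2900097C17Rik was at -0.64, 1700020I14Rik at -0.53, Nespas at -0.50 and Terc at -0.49. Xist (-4.50) and its antisense partner Tsix (-2.61) were past 2-fold, and without a known strand setting reads of this overlapping pair cannot be told apart. Snhg8 and Snhg1, hosts of small nucleolar RNAs, were at 0.09 and 0.14, and Gas5, another such host, at -0.28. Rmrp, the RNA of RNase MRP, was at 957 RPKM in Nedd4-/- and 703 RPKM in Nedd4+/+ cells (0.45) but had the same mean depth in both, 5902 reads per base, so its ratio equals that of library size. The mean depths of Malat1 given above were lower and differed between the libraries. What set the depth of Rmrp, and whether it acts on parts of Malat1, was not tested.

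**Figure D4:**
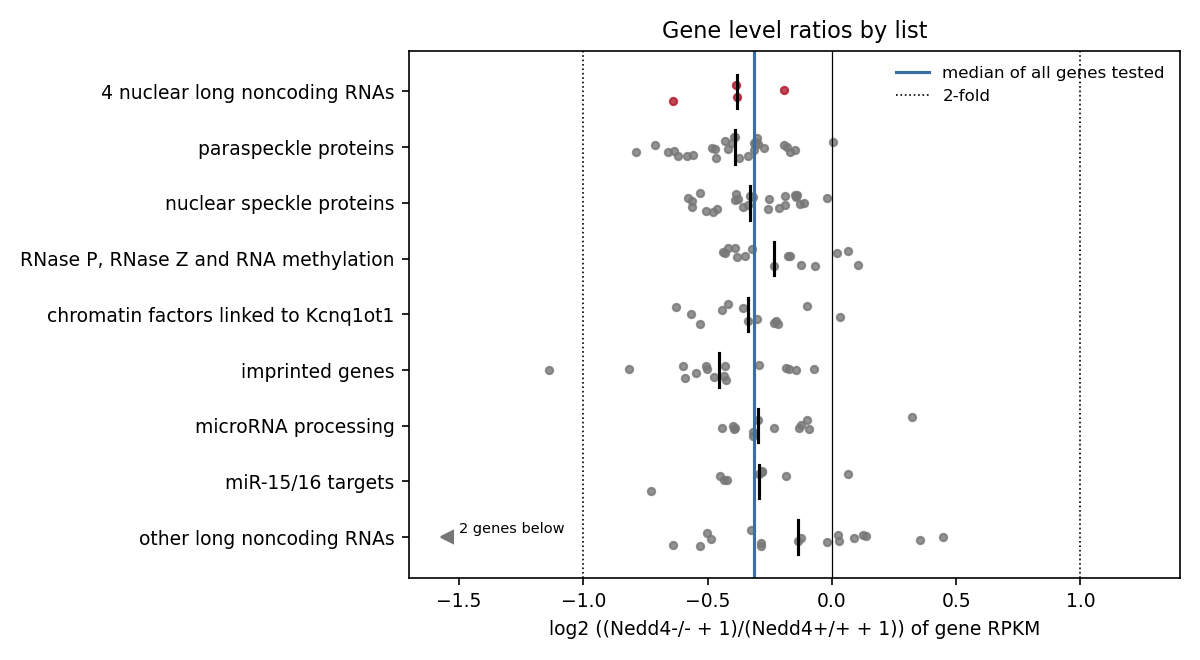
Log2 ratio of Nedd4-/- over Nedd4+/+ gene RPKM, 1 added, for the 4 RNAs (top) and for the tested genes of 8 lists; each point is a gene and each black bar a list's median. List medians sit between -0.45 and -0.14, around the blue line at -0.31 for all genes, and the points past the dotted 2-fold line are H13, Xist and Tsix, the last 2 beyond the left edge.

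Genes most like each RNA were sought by Euclidean distance over 4 values, the log2 gene level and log2 upstream level in both libraries. For Malat1 they were Ppia, a prolyl isomerase gene (distance 0.42), Rps21, of the small ribosomal subunit (0.44), and Ppp1ca, a phosphatase subunit gene (0.52). Only 2 genes of the table came within 0.5 of it. Neat1 was nearest to Sptlc2, of sphingolipid synthesis (0.17), Pot1a, a telomere protein gene (0.17), and Pex16, of peroxisomes (0.19), with 124 genes within 0.5. Kcnq1ot1 was nearest to Rexo1 (0.10), Atmin (0.13) and Atpbd4 (0.15), with 238 within 0.5, and Dleu2 to Hsd17b11 (0.24), Srpk3 (0.26) and Pcbp4 (0.30), with 24 within 0.5.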

How the data were processed

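Total RNA depleted of ribosomal RNA was sequenced from 1 Nedd4-/- and 1 Nedd4+/+ B cell library, grouped by title. Per the submitters' processing notes, TopHat, Cufflinks and mm9 were involved, without versions or roles. The authors deposited RPKM for 1 RefSeq transcript per line, per the file headers. The deposited upstream column was read as a ratio, the window's level over the gene's RPKM plus 0.0001. Multiplied back, it gave whole read bases, within 0.05 bases, in 100% of 22716 windows tested in the Nedd4-/- and 99.99% of 21985 in the Nedd4+/+ library. Upstream levels are that product. The same steps gave 61040000 Nedd4-/- and 83150000 Nedd4+/+ reads of 101 nt, and 1 read pair in a window is worth 0.0328 RPKM in Nedd4-/- and 0.0241 RPKM in Nedd4+/+. Pair numbers are bases over a pair's length. Lengths, sequences and gene order came from RefSeq and GENCODE on GRCm38, not mm9. Of the 4 RNAs 3 matched a RefSeq promoter.

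Before log2 ratios, 1 RPKM was added to gene levels and 0.1 RPKM to upstream levels. Genes averaging at least 1 RPKM and windows averaging at least 0.2 RPKM were tested. The rule was at least 2-fold, and the code that applies it was tested on simulated data. Named are the 4 RNAs, the 4 most abundant tested genes of each list with any past 2-fold, tested neighbours, the hairpin genes and the 3 nearest genes by distance, except that some genes are not reported here. Kcnq1, Cdkn1c, Slc22a18, Trim13, Kcnrg, Rplp2-ps1, Gm15772, 2900097C17Rik, 1700020I14Rik, Nespas, Terc and the motifs were chosen after values or sequences were seen. Members and lists were chosen with earlier results of these data known. Alternatives were another pseudocount, level minimum and scaling. Python 3.11.15, numpy 2.4.6, pandas 2.3.3, scipy 1.17.1 and matplotlib 3.10.9 were used.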

Additional observations from a re-analysis of the deposited data

How the results depend on the processing

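With 1 library per genotype no replicate could be left out. No paired analysis was possible because each group has 1 library. The median log2 ratio of the 4 gene levels, -0.38, was -0.070 relative to the median of all genes and -0.10 with equal sums of RPKM, a rescaling that raises Nedd4-/- levels by 0.36 on the log2 scale. Counts past 2-fold depended on the settings. Another minimum level also changes the number tested, and no share was computed for it. The 13 higher genes became 25 with 0.1 RPKM added, 26 relative to the median, 23 with equal sums and 7 at a minimum of 5 RPKM. The 108 lower genes became 229, 21 and 23 under the first 3 of these. The 2343 higher windows became 38 with 0.5 RPKM added, 769 relative to the median and 10 at a minimum of 1 RPKM, and the 94 lower windows became 20, 672 and 38. Of 69 alternative values for single RNAs and list medians 43 stayed within a reference range and 26 moved beyond it. For RNAs the range was the counting interval without an added value, for lists the lower to upper quartile of their genes. The main gene value of Kcnq1ot1, -0.38, itself lies outside its interval of -0.56 to -0.47. The alternatives also include the deposited ratio of window to gene, which is another measure. The tally is therefore no measure of how stable the main values are. None of the 69 turned the direction of a value past 2-fold, but only the Neat1 window was past it among these main values. Directions below 2-fold did turn, as for the gene level of Dleu2 (0.12) and the window of Kcnq1ot1 (-0.14) relative to the medians. Calls at 2-fold did change in the windows: that of Neat1 was lost with 0.5 RPKM added (0.66) and relative to the median (0.89), and that of Dleu2 was gained relative to the median (-1.20). As the deposited ratio of window to gene, the log2 ratio was 2.21 at Neat1, 1.32 at Malat1, 0.93 at Kcnq1ot1 and -0.78 at Dleu2. The share of all genes past 2-fold on this measure was not computed, so these are not read as calls. Over the whole table windows had a median log2 ratio of 0.41 and genes of -0.31, which raises this measure broadly. With no minimum level the list median turned to 0.11 for imprinted genes and 0.03 for other long noncoding RNAs, and was -0.05 for neighbours. Upstream windows of the 4 RNAs rest on 5.66 to 22.8 read pairs.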
